A study of Equus caballus with 68 samples.

Results

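Bone marrow mononuclear cells (BMNC) of horses were sequenced fresh and again after 10 days of culture in healthy synovial fluid (SF), and the net change between these ends is described here. The libraries were chosen by their labels alone, as all 8 fresh BMNC libraries (0 hours) and all 7 SF libraries of 10 days, which makes 15 of the 68 libraries of the study. The fresh libraries came from Thoroughbreds aged 3 to 9 years, 6 geldings and 2 females, with 1 library per horse. The horses Catnip, Dealings, Dreamer, Lurie, Moon, Ollie and RimRun gave both libraries, and Flash gave a fresh library only. BMNC were isolated from sternal marrow on a density gradient and were neither pooled between horses nor sorted, so that each library is a mixture of cell types. Each horse's cells were kept in that horse's own undiluted, cell-free fluid, SF from a healthy carpal joint or, for the comparison cultures, inflamed synovial fluid (ISF) from a carpal joint injected with lipopolysaccharide. The 7 ISF libraries of 10 days, from the same 7 horses, served as a comparison. No cells were held for 10 days without synovial fluid, so time in culture and exposure to SF cannot be told apart.

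The mononuclear fraction of marrow holds developing red cells, precursors of granulocytes, monocytes, lymphocytes and a few stem and stromal cells. Monocytes that settle in a tissue enlarge into macrophages, which engulf debris, fill with lysosomes and take up lipids. In a joint, macrophages line the synovium and clear debris from the fluid, and fibroblast-like stromal cells build the matrix beside them.

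Expression was given as GeTMM, which divides reads by gene length and balances the libraries with trimmed-mean factors, so that levels can be set side by side between genes as well as between libraries. The reads assigned to genes, which the spacing of the values reveals, numbered 17.5 to 30.9 M per library, and 1 read on a gene of 1 kilobase was worth 0.0417 to 0.0792 GeTMM. Levels near that worth rest on single reads. Genes were compared as log2(GeTMM + 1) with limma, calls were made at an FDR (Benjamini-Hochberg false discovery rate) under 0.05, and folds on this scale understate the change of genes near 0. Over the 200 genes used to check identity, each of the 15 libraries was closest to another library of the same horse. The summed GeTMM was 998292 to 1458342 in fresh BMNC, highest in Ollie, and 817795 to 991759 in the SF cultures.

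After 10 days in SF the cells expressed a different set of abundant genes, with osteopontin, ferritin, GPNMB and cathepsin B at the top and the granule, calgranulin and hemoglobin genes of fresh marrow far down. Of 14570 genes tested, 5063 rose (34.7%) and 5078 fell (34.9%). A log2 fold change of at least 1 was passed by 2411 genes upward (16.5%) and 2557 downward (17.5%), and a change of at least 5 by 63 genes upward and 86 downward. With every library scaled to the same summed GeTMM in place of the deposited factors, 6062 genes rose and 3796 fell, which moved the share of rising calls from 49.9% to 61.5%, and the median log2 fold change of all genes from -0.01 to 0.19. Small changes below should be read against that shift. In 3159 genes (21.7%) every SF library lay above every fresh library, and in 2826 genes (19.4%) every SF library lay below.

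**Figure D1:**
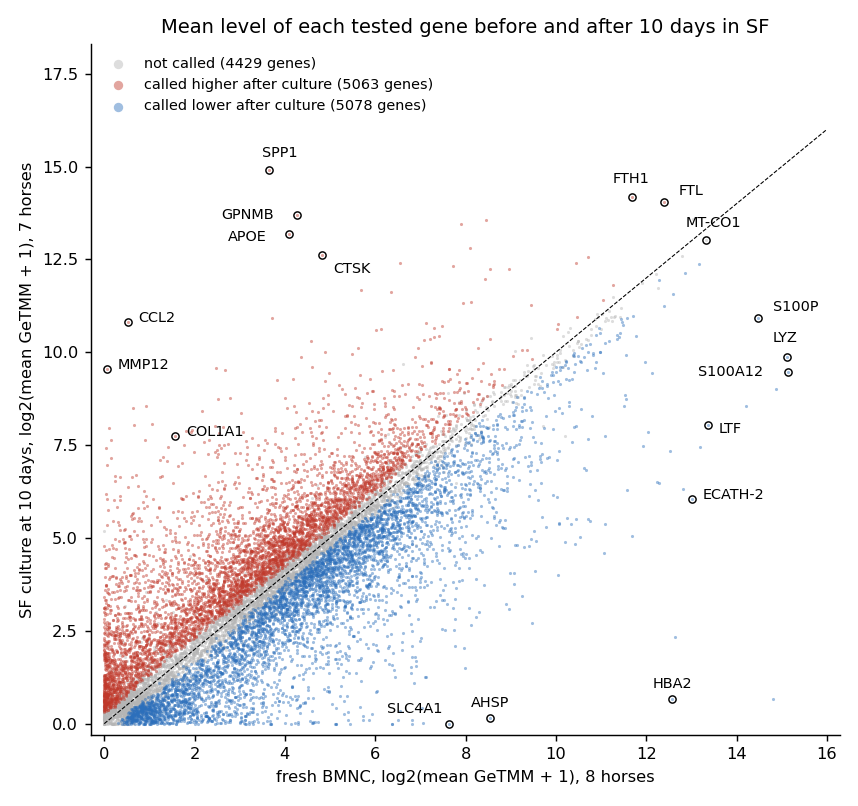
Mean level of each tested gene in fresh BMNC (horizontal axis, 8 horses) and in SF culture at 10 days (vertical axis, 7 horses), both as log2(mean GeTMM + 1), with 1 point per gene colored by its call and the dashed line marking equal levels. SPP1, GPNMB and APOE lie far above the line, HBA2, AHSP and SLC4A1 along the bottom, and MT-CO1 beside the line.

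The ranking of transcripts turned over. Among the 10 genes with the highest mean before culture and the 10 after it, 1 gene was shared, MT-CO1, a mitochondrial subunit of cytochrome oxidase. The top 10 of fresh BMNC held S100A12 (calgranulin C of neutrophils and monocytes), LYZ (lysozyme), S100P, LTF (lactoferrin of neutrophil granules), MT-CO1, TMSB4X (the actin-binding thymosin beta 4) and 4 genes without a symbol. The top 10 of the SF cultures held SPP1 (osteopontin, a secreted adhesion protein), FTH1 and FTL (the ferritin chains that store iron), GPNMB (a glycoprotein of lysosome-rich cells), B2M (the light chain of MHC class I), CTSB (cathepsin B), APOE (apolipoprotein E), MT-CO1 and 2 genes without a symbol. Of the 100 highest genes at each end, 55 were shared.

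S100A12 ranged from 22736 to 65935 GeTMM (median 32534) in fresh BMNC and from 4.85 to 2621 (median 485) after culture, a log2 fold change of -7.30 ± 0.92 (SE; FDR 2.39e-10). LYZ went from 27113 to 52847 (median 33619) to between 12.4 and 3206 (median 672), a change of -6.44 ± 0.82 (FDR 3.95e-10). For both genes the fresh libraries lay above every cultured one, and the spread between cultures was wide. S100P fell from a mean of 22868 ± 10352 GeTMM (SD, n = 8) to 1941 ± 867 (SD, n = 7) and was still the gene of rank 49. ENSECAG00000010020, a gene of fresh rank 4 that has no symbol in the table, fell from 3574 to 65316 GeTMM (median 24194) to between 0 and 1.74.

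SPP1 ranked 7115 among genes in fresh BMNC and 1 in the SF cultures. It ranged from 5.91 to 20.2 GeTMM (median 10.3) before and from 5872 to 58042 (median 25422) after, a log2 fold change of 10.98 ± 0.61 (SE; FDR 2.42e-24). Moon and Lurie had the highest level after culture and Dealings the lowest, and no fresh library came near the lowest culture. FTH1 rose from 2483 to 4813 GeTMM (median 2978) to 15422 to 20623 (median 17983), and FTL from 4663 to 6622 (median 5263) to 13457 to 21118 (median 16741). Both ferritin chains rose in 7 of 7 horses with no overlap between the groups, by 2.51 ± 0.24 and 1.64 ± 0.22 on the log2 scale. B2M was 8348 ± 1885 before and 12276 ± 6116 after, higher in 5 of 7 horses, and was not called (0.45 ± 0.24, FDR 0.0955). It was called with library weights (FDR 0.0476), with libraries scaled to the same sum (FDR 0.00195) and without Catnip (FDR 0.0291). MT-CO1 was 10197 ± 5615 before and 8310 ± 2158 after and did not pass the test (-0.21 ± 0.19, FDR 0.324). TMSB4X fell modestly (-0.80 ± 0.21, FDR 8.23e-04), lower in 7 of 7 horses although the groups overlapped.

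**Figure D2:**
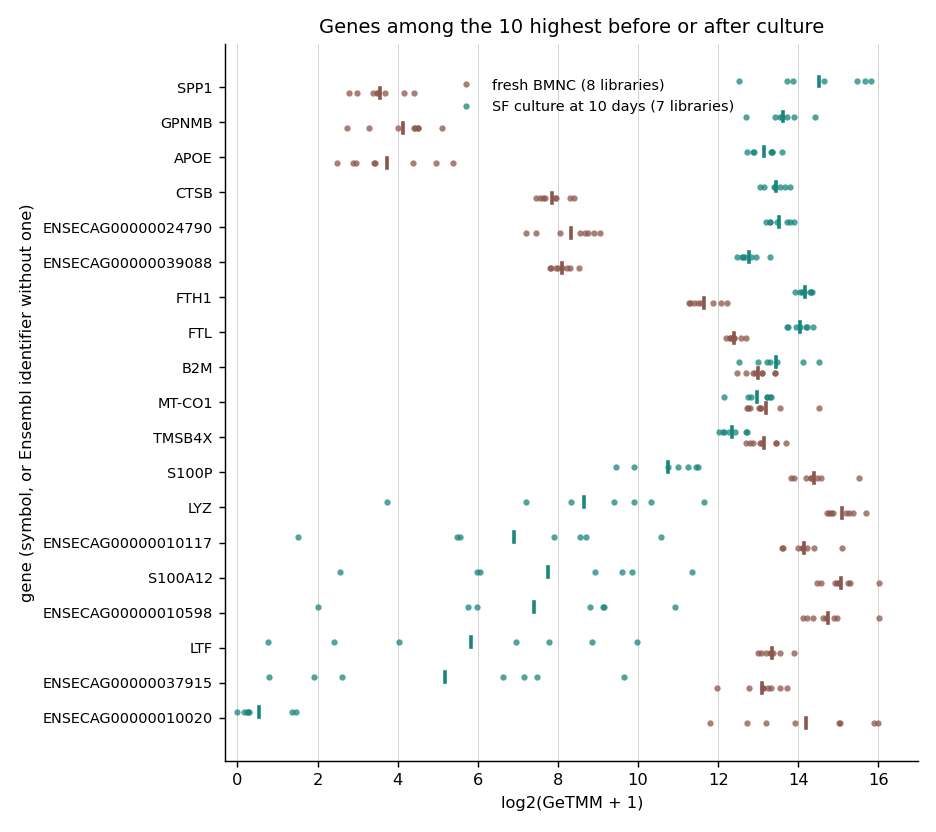
Level of each gene that was among the 10 highest before or after culture, as log2(GeTMM + 1), with 1 point per library (8 fresh BMNC, 7 SF cultures) and a vertical bar at the mean of each group. SPP1, GPNMB and APOE lie right for the cultures and left for fresh BMNC, the calgranulin, LYZ and LTF points of the cultures are spread over many log2 units, and B2M, MT-CO1 and TMSB4X overlap.

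Fewer genes carried the transcriptome of fresh BMNC. The 10 highest genes of a library held 19.1% ± 3.01 of its summed GeTMM in fresh BMNC (SD, n = 8) and 15.3% ± 1.93 after culture (SD, n = 7), lower in 7 of 7 horses (exact permutation test over the signs of the horses' differences, two-sided p = 0.0156, adjusted p = 0.0234 over 3 such tests). The share of the 100 highest genes fell in the same manner, from 43.0% ± 3.61 to 37.9% ± 2.09 (exact permutation p = 0.0156, adjusted p = 0.0234), where 0.0156 is the smallest p that 7 horses allow. The number of genes at 1 GeTMM or more was 12053 ± 151 before and 11958 ± 278 after (exact permutation p = 0.516).

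The largest increases were taken as the 15 highest log2 fold changes among called genes with a unique symbol, a mean of at least 5 GeTMM at 1 end and the same direction in all 7 horses, so that agreement between horses is part of the choice. After SPP1 came CCL2, the chemokine that draws monocytes, which ranged from 0.0553 to 1.59 GeTMM (median 0.203) before and from 372 to 3961 (median 1756) after (log2 fold change 10.10 ± 0.38, FDR 1.96e-32). GPNMB rose from 5.71 to 33.7 (median 20.4) to 6628 to 21970 (median 12443), and APOE, which carries lipid out of cells, from 4.57 to 40.9 (median 9.68) to 6690 to 12414 (median 10231), changes of 9.48 ± 0.30 and 9.42 ± 0.36. These genes were chosen for large increases in all 7 horses, and every culture lay above every fresh library.

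MMP12, the macrophage elastase, was 0 to 0.137 GeTMM in fresh BMNC, 12 reads in all 8 libraries together, and 76.3 to 1806 (median 699) after culture. CTSK, the collagen-degrading cathepsin K, rose from 14.8 to 34.0 (median 29.1) to 3278 to 8843 (median 5453), a change of 7.75 ± 0.39. After culture CTSK was the gene of rank 11. Lipid genes in this set were LPL, the lipase that frees fatty acids from lipoproteins (0.886 ± 0.16 to 373 ± 143), PLTP, which transfers phospholipid between lipoproteins (12.2 ± 5.58 to 1932 ± 546), and PLA2G7, which hydrolyzes platelet-activating factor (1.09 ± 0.47 to 265 ± 70.8). TREM2, a lipid-sensing receptor of macrophages, rose from 4.57 ± 2.58 to 757 ± 158.

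Others of the 15 are best known from different tissues. CYP7A1, the rate-limiting enzyme of bile acid synthesis, rose from 0.582 ± 0.235 to 263 ± 73.6 GeTMM, and MLANA, an antigen of pigment cells, from 5.39 ± 1.98 to 737 ± 307. CYP1B1, a cytochrome P450 that metabolizes steroids, rose from 0.0786 ± 0.12 to 249 ± 103, EEF1A2, the translation elongation factor of muscle and nerve, from 0.543 ± 0.445 to 362 ± 121, and WFDC2, a secreted protein of epithelia, from 2 reads in all 8 fresh libraries to 80.0 to 162 GeTMM. The log2 fold changes of these 5 genes were 6.81 to 7.84.

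The largest decreases fell into hemoglobin and other red cell genes on the one hand and granulocyte and monocyte genes on the other, chosen by the same rule. HBA2, an alpha globin, was 985 to 16653 GeTMM (median 4401) before and 0 to 1.61 (median 0.486) after (-11.47 ± 0.72, FDR 8.40e-22). Reads of HBA2 and its near copy HBA (6322 ± 5203 to 4.03 ± 1.42) may be shared, so that the split between them is uncertain. SLC4A1, the anion exchanger of the red cell membrane, went from 197 ± 218 GeTMM to 0 reads in all 7 cultures. With 3 reads per library as the floor, it was at least 4186-fold below the fresh mean, or 3124-fold without Moon, the highest fresh library. Fresh levels ran from 17.9 to 547 GeTMM (median 87.9), so the bound is smaller for most horses. AHSP, the chaperone of alpha globin, fell from 374 ± 237 to 0.118 ± 0.127, and ALAS2, which starts heme synthesis in red cells, from 133 ± 112 to 2 reads in all 7 cultures.

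Among granule and myeloid genes, LTF was 8152 to 15221 GeTMM (median 10095) before and 0.707 to 1008 (median 124) after (-7.51 ± 1.07, FDR 8.37e-09). ECATH-2, an equine cathelicidin with antimicrobial activity, fell from 8269 ± 2524 to 65.6 ± 94.0, and RETN, resistin, from 4987 ± 2101 to 87.6 ± 111. LCN2, which binds bacterial siderophores, fell from 1177 ± 194 to 28.5 ± 39.9, ELANE, neutrophil elastase, from 1371 ± 549 to 27.4 ± 35.7, and PADI4, which citrullinates histones in neutrophils, from 501 ± 114 to 7.49 ± 8.05. CHI3L1, a chitinase-like protein, and TGM3, a transglutaminase, completed the 15 at -6.83 and -6.42. In these 8 myeloid genes the SD among the cultures was larger than the mean. In bulk RNA, fewer cells of a type and less RNA per cell cannot be told apart, and this holds for every gene group below.

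Cell type and pathway genes were then read by lists, 461 list entries in 32 lists, of which 428 matched a symbol. The level of a list is the mean of log2(GeTMM + 1) over its matched genes, and its count gives the members that were called, to be read against 34.7% of all genes rising and 34.9% falling.

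Macrophage genes rose together. All 11 tested members rose, with a median log2 fold change of 5.27, and the list mean went from 4.23 ± 0.40 (SD, n = 8) to 10.01 ± 0.29 (SD, n = 7), higher in 7 of 7 horses. Of these members SPP1, GPNMB, APOE and TREM2 had already been picked above for their large increase. CD68, a lysosomal glycoprotein of macrophages, ranged from 64.2 to 99.5 GeTMM (median 82.0) before and from 2592 to 3745 (median 3131) after (5.27, FDR 5.10e-40). The scavenger receptors MSR1 (4.75 ± 1.56 to 427 ± 132), MARCO (0.384 ± 0.609 to 36.7 ± 19.2) and CD163, which takes up hemoglobin (96.0 ± 25.8 to 559 ± 234), and the mannose receptor MRC1 (4.60 ± 1.04 to 164 ± 56.0) rose without overlap. The complement genes were the exception in size. C1QB rose by 1.80 (FDR 0.00686) and C1QC by 1.38 (FDR 0.0483), each higher in 5 of 7 horses and lower in Catnip and Moon, and C1QC lost its call under 11 alternatives, among them leaving out Dealings (FDR 0.134), Dreamer (FDR 0.106), Lurie (FDR 0.112), Ollie (FDR 0.121) or RimRun (FDR 0.0941).

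Monocyte genes went the other way, with 5 of 6 falling and 1 rising. Of these members LYZ and S100A12 had already been picked above for their large decrease, and S100A12 is also a neutrophil gene. CSF1R, the receptor for the growth factor of macrophages, rose from 55.9 to 134 GeTMM (median 75.9) to 183 to 397 (median 283). CCR2, the receptor for CCL2, fell from 28.4 ± 8.14 to 8.89 ± 5.18, and VCAN, the proteoglycan versican, from 92.3 ± 33.9 to 35.7 ± 30.6. CCL2 and its receptor thus changed in opposite directions. CD14, S100A8 and S100A9 were not matched by symbol.

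Lysosomal genes rose in 20 of 23 tested, none fell, and the median log2 fold change was 2.60. CTSB rose from 173 to 338 GeTMM (median 222) to 8501 to 14236 (median 11003), a change of 5.57 ± 0.19, and CTSL from 0.440 to 1.71 (median 0.879) to 31.6 to 128 (median 55.4). CTSZ (499 ± 117 to 4798 ± 824) and CTSS (701 ± 135 to 2455 ± 559) rose less in ratio and from higher levels. Enzymes that degrade glycolipids and glycogen, GLA, GLB1 and GAA, rose by 3.02 to 3.63, and the cholesterol exporters of the lysosome by 3.53 for NPC2 and 2.43 for NPC1. MITF, a transcription factor of lysosomal genes, rose from 2.29 ± 0.737 to 50.8 ± 11.2, whereas the related TFEB was 157 ± 17.7 before and 125 ± 32.0 after, which missed the threshold (FDR 0.0761) and was called lower with the horse as a block over all libraries (FDR 0.0155), in a fit of the 2 groups alone (FDR 0.0341), with median-ratio scaling (FDR 0.045) and without Dealings (FDR 0.0358). GRN, progranulin, rose by 0.51 (FDR 0.00644) but not without Dealings (0.32, FDR 0.0768).

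Lipid handling rose in 10 of 12 genes with a median of 3.44, and cholesterol synthesis in 15 of 17 with a median of 1.59. Of the lipid handling genes LPL and PLTP had already been picked above for their large increase. Uptake and storage were represented by CD36, the fatty acid and oxidized lipoprotein receptor (28.5 ± 9.29 to 1022 ± 282), FABP5, a fatty acid carrier (19.6 ± 3.62 to 939 ± 246), LIPA, the lysosomal acid lipase (22.8 ± 8.75 to 1268 ± 313), and PLIN2, a lipid droplet coat (48.8 ± 6.11 to 182 ± 46.5). The nuclear receptors PPARG and NR1H3 rose by 2.19 and 2.83, and the exporter ABCA1 by 3.31, while ABCG1 was 6.34 ± 5.50 before and 6.06 ± 2.75 after (FDR 0.771). OLR1, another lipoprotein receptor, fell (-1.98). In the synthesis list, large increases were seen in INSIG1, a sterol sensor that restrains the pathway (15.1 ± 5.42 to 439 ± 141), and the enzymes CYP51A1 (2.79), DHCR7 (2.57) and SQLE (2.48). SREBF2, the transcription factor of these genes, fell from 80.6 to 120 GeTMM (median 106) to 39.3 to 66.4 (median 44.8), a log2 fold change of -1.11. Scaled to the same sum per library, the difference of the list means was 3.85 for lipid handling and 2.60 for lysosome, against 3.60 and 2.34 as deposited.

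Of 9 osteoclast genes, 7 rose and 2 fell. Beside CTSK, the rising genes were ACP5, tartrate-resistant acid phosphatase (70.2 ± 14.8 to 721 ± 456), the proton pump subunit ATP6V0D2 (0.173 ± 0.141 to 30.1 ± 21.5), the fusion genes DCSTAMP (2.53) and OCSTAMP (2.09), TNFRSF11A, the receptor for RANKL (2.62), and NFATC1, the transcription factor that drives osteoclast formation (1.04). The receptor OSCAR fell from 93.5 ± 13.7 to 7.89 ± 4.28, and MMP9 from 2100 ± 344 to 699 ± 455. Several of these genes, CTSK and ACP5 among them, are also expressed by macrophages.

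Matrix metalloproteinases and their inhibitors (TIMPs) split, 8 rising and 7 falling of 15 tested. MMP14, a membrane-bound collagenase, rose from 0.557 to 2.08 GeTMM (median 1.33) to 87.0 to 175 (median 134), and MMP19 from 39.3 ± 17.7 to 248 ± 45.7. MMP1, interstitial collagenase, fell from 1307 to 2332 (median 1794) to 26.0 to 590 (median 319), and MMP25, a neutrophil membrane protease, from 337 ± 69.7 to 12.4 ± 12.3. Of the inhibitors, TIMP1 rose from 23.2 ± 12.9 to 344 ± 376 and TIMP2 from 165 ± 24.6 to 467 ± 65.0. TIMP1 in the culture of Lurie was 1182, against 128 to 348 in the others. MMP2 (2.17) and TIMP3 (1.77) were called higher, but their levels after culture were 0.194 to 9.02 and 0.0388 to 12.7 outside Lurie, and 99.0 and 78.0 in Lurie, the culture with the highest stromal genes. The part of stromal cells in these values was not tested.

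**Figure D3:**
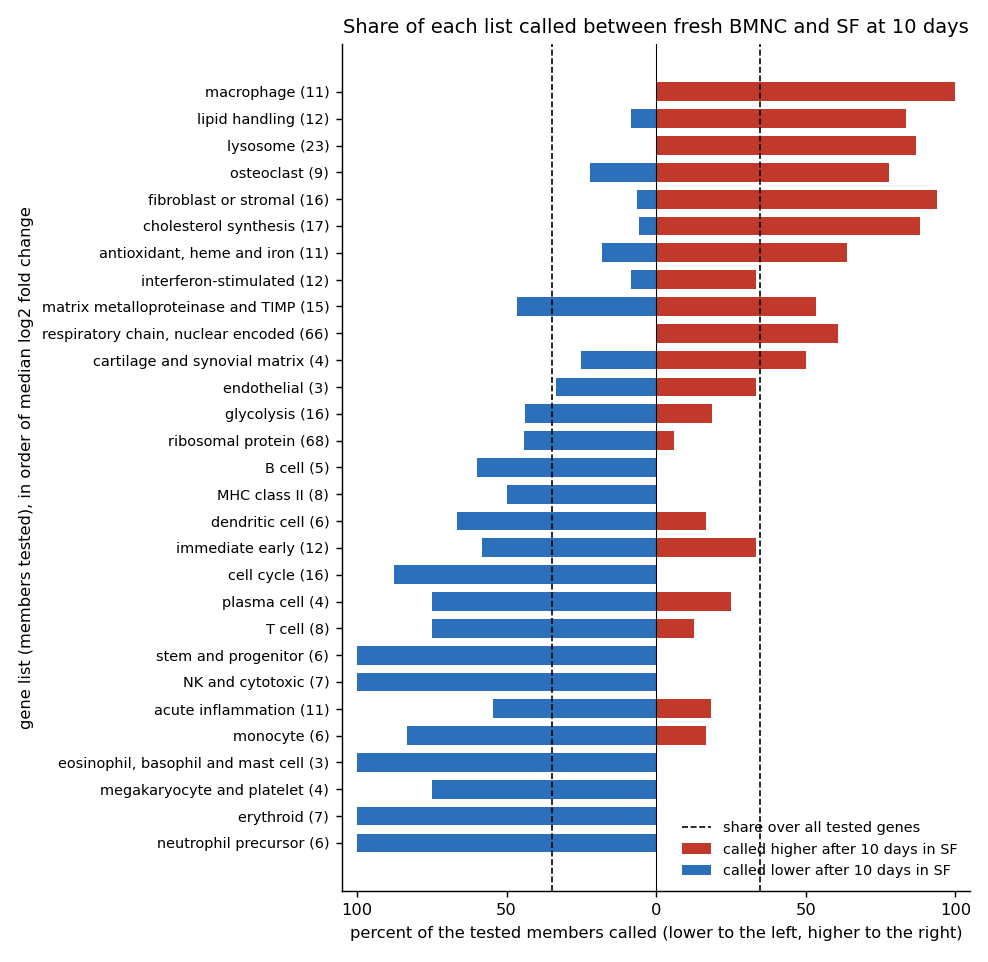
Percent of the tested genes of each list (lists with at least 3 tested, number tested in parentheses) called higher (right) or lower (left) after 10 days in SF, in order of median log2 fold change, with dashed lines at the shares of all genes, 34.7% and 34.9%. Macrophage, lysosome, cholesterol synthesis, lipid handling and stromal lists lie mostly to the right, and red cell, neutrophil, stem cell, cytotoxic and cell cycle lists to the left.

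Red cell genes fell to near 0. All 7 tested members fell, and the list mean went from 5.14 ± 1.39 to 0.22 ± 0.09. Of these members AHSP, SLC4A1 and ALAS2 had already been picked above for their large decrease. The fresh libraries ranged from 2.89 in Dreamer to 7.02 in Moon, which had 7.01 in Catnip next to it, whereas the cultures lay between 0.16 and 0.41. GATA1 and KLF1, the transcription factors of red cell development, fell from 19.2 ± 18.8 to 0.226 ± 0.116 and from 21.7 ± 22.0 to 0.617 ± 0.279. EPOR, the erythropoietin receptor, fell (-2.34) with overlap. At 48 hours in SF the list mean was 0.97, and at 96 hours 0.33.

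Neutrophil precursor genes fell in all 6 tested, with a median log2 fold change of -5.98, but to very different levels. Of these members LTF and ELANE had already been picked above for their large decrease. The list mean was 9.65 to 10.64 in fresh BMNC and 3.98 ± 2.18 after culture, lowest in Dealings (0.39) and highest in Catnip (7.31). MPO, the peroxidase of primary granules, was 384 to 1099 GeTMM (median 682) before and 0.0591 in Dealings to 129 in Catnip after. AZU1, OLFM4 and CEBPE, of the granules and their transcriptional program, fell by similar amounts (-5.97, -5.99 and -5.72). Both tested genes of mature neutrophils fell without overlap, CSF3R, the G-CSF receptor, from 625 ± 124 to 25.8 ± 27.9 and ALPL from 541 ± 130 to 12.6 ± 12.8.

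The other marrow lineages followed. Stem and progenitor genes fell in 6 of 6 (MYB from 39.1 ± 7.85 to 2.77 ± 3.20, FLT3 from 16.1 ± 1.75 to 3.78 ± 2.96, CD34 from 5.16 ± 1.90 to 1.06 ± 1.21), and GATA2, a transcription factor of this list, fell by 0.69 on the log2 scale (FDR 0.000221) but was not called in the 2-group fit with the horse as a block (-0.75, FDR 0.0547). Platelet genes fell in 3 of 4 tested, PPBP, a platelet chemokine, from 412 to 1115 GeTMM (median 777) to 0 to 67.6 (median 10.4). Among eosinophil, basophil and mast cell genes 3 of 3 tested fell, EPX, eosinophil peroxidase, from 24.3 ± 25.6 to 2.19 ± 4.16. HDC, which makes histamine, was below the filter and went to 0 reads in all 7 cultures. Against the fresh mean this was at least 16.8-fold lower, or 10.5-fold without Dealings, the highest fresh library. Fresh HDC was 0.0559 to 4.92 GeTMM (median 0.311). With 3 reads per library as the floor (0.0813 GeTMM), no fall can be shown for the lowest fresh library. Dendritic cell genes fell in 4 of 6, and IRF8 rose slightly (0.34, FDR 0.0118), a call lost without Lurie (0.26, FDR 0.0698) and with library weights (FDR 0.0667). Cell cycle genes fell in 14 of 16 (median -1.25), TOP2A from 33.9 to 61.4 GeTMM (mean 47.1) to 2.06 to 18.0 (mean 11.9), and CDK1, at 33.4 ± 11.7 and 26.0 ± 8.04, and AURKA, at 22.2 ± 4.81 and 19.2 ± 3.42, were not called. In a fit of the 2 groups with the horse as a block both were called lower (CDK1 -0.49, FDR 0.0498, and AURKA -0.27, FDR 0.0157).

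Lymphocyte genes mostly fell, by far less than the red cell genes. T cell genes fell in 6 of 8, with a median log2 fold change of -1.30. The list mean was 5.05 ± 0.33 before and 4.41 ± 0.81 after, lower in 7 of 7 horses. This mean includes CD4, which rose, so it understates the fall of the other members. CD3E, a chain of the T cell receptor complex, ranged from 34.0 to 107 GeTMM (median 52.4) before and from 4.69 in RimRun to 57.7 in Dreamer after (-1.39, FDR 0.00264). The groups overlapped for CD3E, as they did for CD3G, CD5 and LCK, which fell by 1.35 to 1.49. CD2 (-0.84, FDR 0.0406) and CD8A (-1.25, FDR 0.0266) were weaker calls: CD2 was not called without Catnip, Dreamer, Flash, Lurie, Moon or Ollie (FDR 0.0522 to 0.201) or with the horse as a block in a fit of the 2 groups (FDR 0.075), nor CD8A without Catnip, Lurie, Moon or Ollie (FDR 0.0535 to 0.0797). CD3D was 43.9 ± 11.3 before and 29.5 ± 22.9 after (-0.93, FDR 0.065) and was called with the horse as a block (-0.88, FDR 0.00689). CD4, which macrophages of some species also carry, went against the list and rose from 18.1 to 41.2 (median 23.9) to 198 to 551 (median 321).

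NK and cytotoxic genes fell in 7 of 7, among them NCR1, an activating receptor of NK cells (77.6 ± 22.9 to 6.56 ± 7.05), KLRK1 (15.2 ± 7.29 to 3.18 ± 2.71), GZMA (8.16 ± 3.32 to 2.98 ± 1.90) and PRF1, perforin (6.92 ± 1.90 to 3.04 ± 1.80). B cell genes fell in 3 of 5. CD79A, of the B cell receptor complex, was 34.7 to 101 GeTMM (median 54.6) before and 3.64 in RimRun to 74.3 in Dreamer after (-1.24, FDR 0.0125). MS4A1, which encodes CD20, was 17.6 ± 5.19 before and 16.1 ± 14.8 after (FDR 0.292), higher after culture in Catnip and Dreamer. None of the 5 was called without RimRun (CD79A FDR 0.0892, BLK FDR 0.205), and 1 was called with libraries scaled to the same sum.

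Plasma cell genes fell in 3 of 4, MZB1 from 35.8 ± 20.9 to 2.33 ± 3.05 and JCHAIN, the joining chain of secreted antibody, from 1079 ± 1137 to 358 ± 308 (FDR 0.0112, lost without Ollie at FDR 0.0541). SDC1, a plasma cell marker that other cells also express, rose from 13.1 ± 3.44 to 606 ± 202. Of 8 genes of MHC class II antigen presentation 4 fell and none rose, CD74, the invariant chain, from 2008 ± 551 to 1028 ± 346 and CIITA, the transactivator of these genes, from 23.1 ± 6.81 to 10.0 ± 3.35. DRA (1335 ± 384 to 958 ± 345, FDR 0.106) and HLA-DMA (181 ± 40.5 to 179 ± 66.7, FDR 0.80) did not pass. DQA (FDR 0.189) and DQB (FDR 0.0715) were called with the horse as a block over all libraries.

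**Figure D4:**
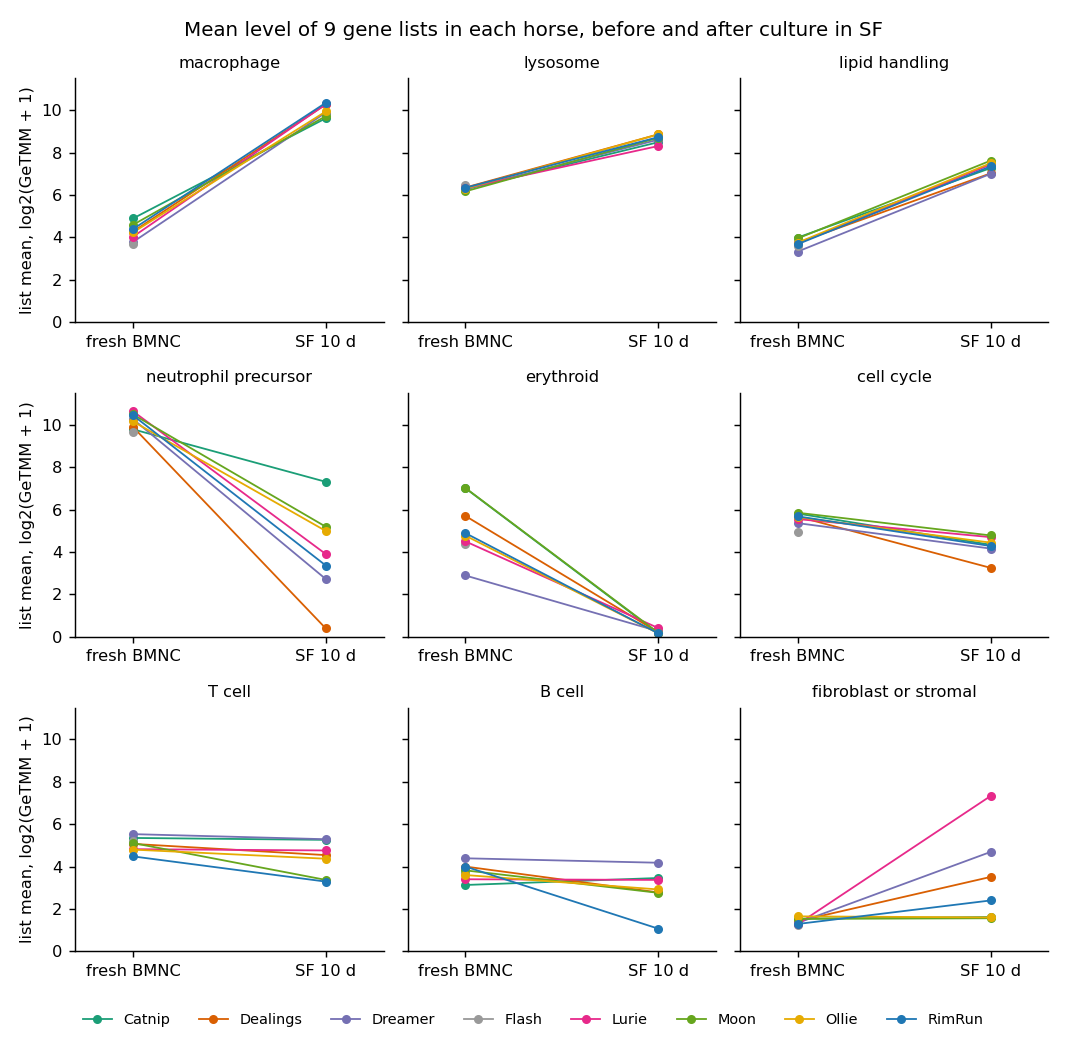
Mean of log2(GeTMM + 1) over the genes of selected lists in each library, with a line joining the fresh BMNC and the SF culture of 10 days of the same horse, and a lone point for Flash, which has no SF culture of 10 days. The macrophage lines rise in parallel, the red cell lines converge near 0, and the neutrophil precursor and stromal lines fan out between horses.

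Stromal genes rose, but unevenly. Of 16 tested fibroblast or stromal genes 15 rose and 1 fell, with a median log2 fold change of 2.47. Members near 0 in fresh BMNC, COL3A1 (at most 0.0702 GeTMM), COL6A1 (0.0967) and COL6A3 (0.0825) among them, passed the filter only through cultures. Such members could be called higher but not lower, so the count is partly set by the filter. The list mean went from 1.41 ± 0.15 to 3.24 ± 2.15. After culture it was 7.33 in Lurie, 4.69 in Dreamer, 3.51 in Dealings and 2.40 in RimRun. In Catnip (1.62), Ollie (1.60) and Moon (1.56) it lay within the range of fresh BMNC, 1.26 to 1.65. The mean includes THY1, the member that fell, from 3105 to 6009 GeTMM to 13.2 to 550. That fall offsets rises of other members, so a mean within the fresh range does not show that the others were unchanged. COL1A1, a chain of type I collagen, was 1359 GeTMM in Lurie, 92.0 in Dreamer and 34.4 in Dealings, then 6.66 in RimRun, 0.927 in Ollie, 0.407 in Catnip and 0.0632 in Moon, against 0.137 to 5.19 in fresh BMNC. It was higher in 4 of 7 horses (2.49 ± 0.86, FDR 0.00902), and was not called without Lurie (1.23, FDR 0.146), without Dreamer (1.93, FDR 0.0754), or in a fit of these 2 groups alone (FDR 0.0845, or 0.165 with the horse as a block). COL1A2 likewise lost its call without Lurie (1.53, FDR 0.0562) and in the fits of the 2 groups alone (FDR 0.0556 and 0.116).

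COL3A1, of type III collagen, was absent or at single reads in fresh BMNC (0 to 0.0702 GeTMM) and 0.0132 in Moon to 986 in Lurie after culture, higher in 6 of 7 horses. The small proteoglycans DCN (0.271 ± 0.214 to 68.6 ± 156) and LUM (0.516 ± 0.503 to 47.1 ± 87.2) followed the order of the collagens at the top, with Lurie first, at 422 and 232, and 0 reads of both in Moon. The members that rose in every culture without overlap were ACTA2, smooth muscle actin (1.50 to 7.48 before, 16.4 to 291 after), and SPARC, a matrix-binding glycoprotein (16.7 to 31.7 before, 34.3 to 906 after). THY1, the surface glycoprotein CD90 that several blood cell types of other species also carry, was abundant in fresh BMNC at 3105 to 6009 and fell to 13.2 to 550 (-5.37, FDR 3.88e-10). The number of stromal genes called higher was 12 in a fit of the 2 groups alone, 10 with the horse as a block in that fit, 13 without Lurie and 9 of the genes left by a filter of 5 GeTMM.

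The macrophage list mean was thus higher after culture in 7 of 7 horses, and the T cell list mean, with the rising CD4 included, lower in 7 of 7. The stromal list mean, with the falling THY1 included, was above its fresh range in 4 of 7 cultures. Of 7 cartilage and synovial matrix genes 4 passed the filter, 2 rose and 1 fell. Without Lurie, 1 was called higher and 2 lower, COMP, a cartilage matrix protein, moving from -0.25 (FDR 0.216) to -0.64 (FDR 2.31e-09). COMP was also called lower with library weights (FDR 0.0215), with limma voom on recovered reads (FDR 0.00184) and with a pseudocount of 0.1 (FDR 0.00676). PRELP, a matrix proteoglycan, rose in every culture, from 0.208 to 1.56 GeTMM (median 0.774) to 30.4 to 113 (median 64.1), in a different order of horses than the collagens, with RimRun highest and Lurie lowest. OGN rose (0.82, FDR 0.0103) on 28.6 GeTMM in Lurie against at most 0.609 elsewhere, and was not called without Lurie (0.19, FDR 0.202) or in a fit of the 2 groups with the horse as a block (FDR 0.199). PRG4 was not matched by symbol, and ACAN and COL2A1 were at most 0.128 after culture.

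Of the endothelial genes 3 of 6 were tested. EMCN, endomucin, rose from 0.366 ± 0.239 to 11.7 ± 6.97, PECAM1, also present on leukocytes, fell from 138 ± 9.62 to 55.4 ± 4.76, and TEK was 4.14 ± 1.72 before and 3.61 ± 1.75 after (FDR 0.496). The defining genes KDR, CDH5 and VWF did not reach the filter. Of 5 adipocyte genes ADIPOQ alone was tested and rose by 0.44 (FDR 0.0297), a call lost without Catnip, Dealings, Dreamer or RimRun (FDR 0.0848 to 0.156) and in the blocked fit of the 2 groups (FDR 0.145). Of 4 osteoblast genes the 2 tested fell, RUNX2 from 18.5 ± 5.44 to 4.08 ± 2.02 and BGLAP, osteocalcin, from 15.8 ± 6.42 to 2.98 ± 1.64.

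Genes of acute inflammation fell in 6 of 11 and rose in 2. CXCL8, the neutrophil chemokine, went from 42.3 to 225 GeTMM (mean 119) to 1.20 to 28.4 (mean 11.1), IL1B from 8.36 to 20.2 (median 14.9) to 0.335 to 5.01 (median 1.85), and the regulators NFKBIA and TNFAIP3 fell by 1.83 and 1.48. Beside CCL2, CCL3, another monocyte chemokine, rose from 8.27 to 31.0 (median 16.9) to 119 to 520 (median 208). TNF (6.39 ± 2.52 and 6.08 ± 1.89, FDR 0.907) and IL6 (0.116 ± 0.0838 and 0.674 ± 1.28, FDR 0.0556) were not called. IL6 was called higher with libraries scaled to the same sum (FDR 0.0356) and without Dealings, Dreamer, Moon or RimRun (FDR 0.0343 to 0.0456). Immediate early genes, which respond within minutes to stimulation or handling, fell in 7 of 12 and rose in 4. FOSB fell from 67.8 to 274 (median 92.4) to 0.588 to 1.69 (median 1.12), FOS from 675 ± 286 to 26.6 ± 15.2 and DUSP1 from 560 ± 109 to 27.3 ± 8.76, whereas ATF3, a stress-induced factor, rose from 9.82 ± 4.45 to 139 ± 40.7.

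Genes of mitochondrial respiration encoded in the nucleus rose in 40 of 66 tested and none fell, by small amounts (median 0.54, and the median of all genes shifted by up to 0.19 with the scaling). COX7A1, a cytochrome oxidase subunit of muscle, rose from 5.38 to 85.6 GeTMM on average (3.62), more than the rest of the list. Ribosomal protein genes fell in 30 of 68 and rose in 4 (RPL22L1, RPL26L1, RPL36AL and RPL7L1), with a median of -0.40. RPL22L1 (0.55, FDR 0.0496) lost its call under 11 alternatives (FDR 0.05 to 0.21), among them leaving out Catnip, Dreamer, Flash, Lurie, Ollie or RimRun, and RPL26L1 (0.37) lost it in the 2-group fit with the horse as a block (FDR 0.0517). The count of falling genes depended on scaling and on single libraries, being 14 with libraries scaled to the same sum, 19 without Ollie and 46 when the 6-day SF culture of Moon, which shares the fit, was left out.

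Glycolysis genes fell in 7 of 16 and rose in 3. HK3, a hexokinase of myeloid cells, went from 924 to 1272 GeTMM (median 1086) to 3.81 to 132 (median 37.6), HK2 from 44.3 ± 12.9 to 4.13 ± 3.91, and GAPDH from 2732 ± 358 to 1460 ± 691. The phosphofructokinase genes PFKL, PFKM and PFKP rose by 1.24, 0.75 and 1.07, and PKM (549 to 860 GeTMM before and 441 to 1039 after) and LDHA (547 ± 72.8 and 604 ± 197) were not called. Of 11 antioxidant, heme and iron genes 7 rose and 2 fell. Beside the ferritins, PRDX1, a peroxidase, rose from 116 ± 16.1 to 941 ± 212 and HMOX1, which degrades heme, from 172 ± 13.2 to 476 ± 90.7. SLC40A1, the iron exporter ferroportin, fell from 149 ± 28.7 to 61.9 ± 35.4, so that iron storage and export genes changed in opposite directions.

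Interferon-stimulated genes were highest in Dealings at both ends, apart from the rest in fresh BMNC and at the top of a graded spread after culture. In fresh BMNC the list mean was 6.69 in Dealings and 4.02 to 4.61 in the other 7 horses, and after culture 8.64 in Dealings and 3.97 to 6.77 in the other 6. MX1, an antiviral GTPase, was 271 GeTMM in fresh cells of Dealings and 6.24 to 23.7 elsewhere, and after culture 1555 in Dealings and 19.6 to 119 elsewhere. It rose in 7 of 7 horses (2.55, FDR 0.006), as did OAS2 (3.22), RSAD2 (2.07) and the chemokine CXCL10 (2.72, FDR 0.0064), which was 688 in Dealings, 251 in Ollie and 112 in Lurie, and 4.25 to 7.97 in the others. IFIT2 fell (-1.75, FDR 0.0015), and the other 7 tested genes of the list were not called. Among these 7, IFI44L (FDR 0.0645) was called higher with the horse as a block (FDR 0.0209 over all libraries and 0.0162 over the 2 groups), with libraries scaled to the same sum (FDR 0.0285) and without Catnip (FDR 0.0474).

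By SD of log2(GeTMM + 1) over the 7 cultures the first 10 genes were COL1A1 (3.80), COL3A1 (3.70), COL1A2 (3.69), LTF (3.46), DCN (3.22), CXCL11 (3.17), CLU (3.13), LUM (3.04), S100A12 (3.03) and COL6A1 (2.95). LTF was highest in Catnip (1008 GeTMM) and Moon (457), the cultures with COL1A1 near 0, and lowest in RimRun (4.33) and Dealings (0.707), while Lurie had 124 of LTF beside its 1359 of COL1A1. CLU, the chaperone clusterin, was 652 in Lurie, 33.3 in Dealings and 26.6 in Dreamer, and 0.366 to 3.22 elsewhere. In fresh BMNC the 5 most variable genes were eca-mir-9166, IGLV2-33, CLEC4E, CYP4F119 and MFSD2B (SD 1.85 to 2.46). CLEC4E, a receptor for mycobacterial and fungal lipids, was 1443 to 2109 in Lurie, Ollie and RimRun and 92.5 to 194 in the other 5 horses, and after culture 9.40 to 189 in all.

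**Figure D5:**
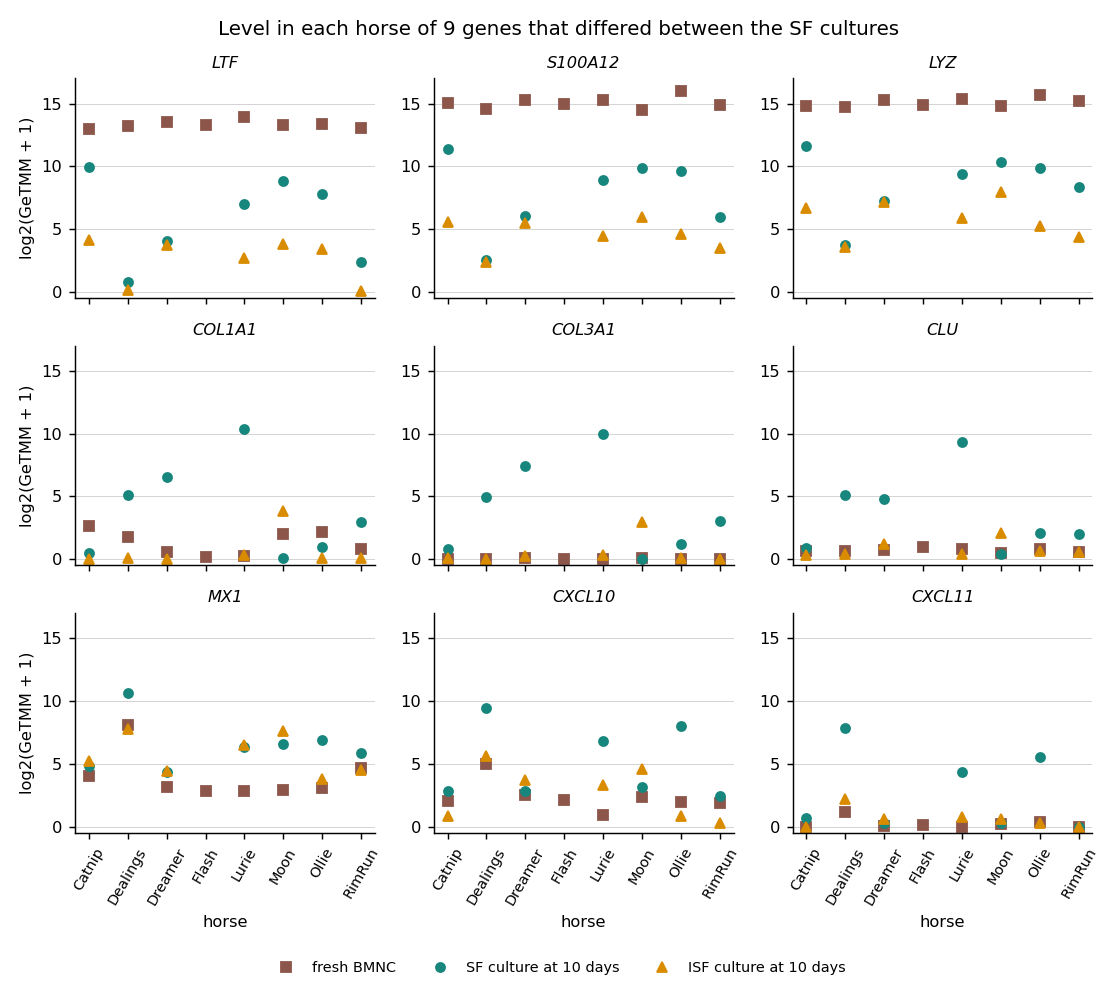
Level of 9 genes that differed between SF cultures, as log2(GeTMM + 1), in the fresh BMNC (squares), SF culture (circles) and ISF culture (triangles) of 10 days of each horse, with no culture for Flash. Collagens peak in Lurie and Dreamer, LTF, S100A12 and LYZ in Catnip, and MX1, CXCL10 and CXCL11 in Dealings.

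Levels at the times between the ends are given as means without a test and show only the rough course of the change. The means are over different horses, 7 at 48 hours (without Moon), 8 at 96 hours and 6 days, and 7 at 10 days (without Flash). SPP1 had a mean of 1777 GeTMM at 48 hours in SF, 10658 at 96 hours and 24424 at 6 days, on the way to 30652 at 10 days. GPNMB was near its final level by 96 hours (5565 at 48 hours, then 13809), whereas CCL2 and LPL had most of their increase between 6 days, at 610 and 107, and 10 days, at 1797 and 373. FTH1 and FTL had means of 32092 and 30641 at 6 days, or 22992 and 20881 without the culture of Moon, and 18409 and 16956 at the end. The 6-day culture of Moon had a summed GeTMM of 2321940, against 905668 to 1012755 in the others of that time, and without it the 6-day means were 22734 for SPP1, 469 for CCL2 and 119 for LPL. The macrophage list had a mean of 8.02 at 48 hours, 9.43 at 96 hours and 10.01 at 6 days, the neutrophil precursor list 8.11, 7.86 and 7.07 before its 3.98 at 10 days, and the stromal list 1.13, 1.40 and 2.14 before its 3.24.

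The ISF cultures of 10 days, set against the SF cultures of the same horses, show which features of this end state differed with the fluid. Both comparisons use the SF libraries of 10 days, so their values are not independent. Of 14570 genes 1449 were higher in ISF (9.95%) and 1578 lower (10.8%), and without Dealings 910 and 1035. The macrophage list mean was 10.05 ± 0.31 in ISF and 10.01 ± 0.29 in SF, with 1 of 11 genes higher (MSR1, 1.58) and 1 lower (C1QB, -1.92). Lymphocyte and stromal genes were lower in ISF, 7 of 8 T cell, 5 of 5 B cell, 5 of 7 NK and cytotoxic and 12 of 16 stromal genes, and none were higher. The T cell list mean was 2.11 ± 0.35 in ISF against 4.41 ± 0.81 in SF, and the stromal list mean 1.65 ± 0.58 against 3.24 ± 2.15. The stromal difference was uneven: SF and ISF means were 7.33 and 1.77 in Lurie, 4.69 and 1.20 in Dreamer, and 3.51 and 1.42 in Dealings. They were 2.40 and 1.57 in RimRun, 1.62 and 1.37 in Catnip and 1.60 and 1.32 in Ollie. In Moon ISF was higher (1.56 and 2.90). Some stromal members passed the filter only through cultures, as given above.

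All 8 genes of MHC class II were lower in ISF, CIITA (-2.08) and HLA-DMA (-2.55) among them, and 14 of 16 glycolysis genes were higher and 1, HK3, was lower. With libraries scaled to the same sum, 645 genes in all were higher in ISF and 2488 lower. The chemokine CCL2 and the elastase MMP12, among the genes that rose most in SF, were higher still in ISF, by 2.09 (FDR 6.46e-05) and 2.82 (FDR 0.0103), while SPP1, GPNMB, APOE, CTSK and TREM2 were not called between the fluids (FDR 0.0764 to 0.90). PRELP, which rose in every SF culture, was lower in ISF (-3.34).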

How the data were processed

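RNA of BMNC was sequenced as stranded paired-end libraries. Per the labels and the study's methods, the authors mapped reads to EquCab3.0 with STAR 2.7.2a, counted them per gene and deposited GeTMM values (made with edgeR), which resemble RPKM values but carry TMM scaling between libraries. No logarithm had been taken. How strand was used in counting is not given in the sources used here.

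The table lists 30371 genes, 24065 of them with a value above 0 in some library. No symbol was given for 13157, and 744 shared a symbol, so identifiers were used throughout. Genes at 0.5 GeTMM or more in at least 7 libraries (14570) were tested as log2(GeTMM + 1) with limma 3.58.1 (R 4.3.3, lmFit and eBayes with trend), in 1 fit of all 68 libraries and 9 groups with no term for horse, two-sided. Calls were made at an FDR under 0.05, adjusted after Benjamini and Hochberg over every gene tested. Single library values were tested with exact permutation of signs within 7 horses. Figures and summaries used Python 3.11.15, numpy 2.4.6, pandas 2.3.3 and matplotlib 3.10.9.

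Whole reads were recovered for 19286 of 19286 genes above 0 in at least 8 libraries, within 0.02 reads of a whole number, and give the depth and a limma voom alternative. Depths rest on reads assigned to genes and on no common factor in the reads of a library. On simulated data for SF at 10 days against fresh BMNC (14564 genes, 200 of them changed), 78% of 2-fold and 98% of 4-fold changes were called, 7.37% of calls were false, and none had the wrong sign. The simulation gave each gene the same spread in all groups and had no horse effect. In the data 69.6% of genes were called and spreads differed between groups, so these rates may not carry over.

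Libraries of the same horse are from the same animal and therefore pair. Deviations from the group means correlated by 0.028 to 0.324 (median 0.162) between the ends of the same horse and by -0.171 to 0.125 (median -0.019) between horses. Fits with the horse as a block were alternatives, beside other pseudocounts, filters, scalings, library weights, fold limits and leaving out each horse. Each fresh library is 1 uncultured sample of 1 horse, and each culture library 1 well of 1 horse. The spread between cultures therefore holds differences between horses and between wells, which cannot be told apart.

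Named genes were the 15 highest and 15 lowest changes by the rule given above, the 10 highest genes at each end, the list members, and the 10 genes (SF cultures) and 5 genes (fresh BMNC) with the largest SD among those reaching 5 GeTMM. These members and lists were chosen with earlier results of these data known. No gene set test was run. Some list members are counted but not reported by name here.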

Additional observations from a re-analysis of the deposited data

Results flagged for a closer look

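In 16 of 176 groups of libraries 1 library lay far from the rest by Dixon's test. Chance gives about 1 in 20 for groups not chosen by their spread. Some of these genes were named for spread over the same libraries, and the groups share libraries, so the 16 cannot be set against that rate. Levels are log2(GeTMM + 1). Lurie stood apart after culture in the red cell list (0.41, others 0.16 to 0.26), which is near 0 in every culture, and the cartilage and synovial matrix list (2.59, others 0.86 to 1.18). Dealings stood apart in cell cycle genes after culture (3.25, others 4.16 to 4.78), and before culture in interferon-stimulated genes (6.69, others 4.02 to 4.61) and CXCL11 (1.19, others 0 to 0.34). Ollie stood apart in immediate early genes after culture (5.19, others 4.40 to 4.67).

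The fresh library of Ollie, which has the highest summed GeTMM, accounted for 7 of the 16. It was lowest in the osteoclast list (3.71, others 3.92 to 4.01) and CTSK (3.98, others 4.60 to 5.13), and highest in RETN (13.27, others 11.74 to 12.41), S100P (15.52, others 13.81 to 14.56), MT-CO1 (14.52, others 12.72 to 13.55), LUM (1.44, others 0.20 to 0.66) and ENSECAG00000010598 (16.02, others 14.13 to 14.98). In fresh BMNC, Catnip was highest in CCL2 (1.37, others 0.08 to 0.67) and WFDC2 (0.40, others 0), and Moon in the osteoblast list (2.40, others 1.96 to 2.15). The WFDC2 flag rests on the few fresh reads given above.

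Of 56 genes named by size, rank or spread, 23 differed between ISF and SF at 10 days (limma, log2 fold change of ISF over SF), 5 higher and 18 lower, where 9.95% of all genes were higher and 10.8% lower. These genes were chosen on the same SF libraries that enter this comparison. Higher in ISF were CCL2 (2.09, FDR 6.46e-05), MMP12 (2.82, FDR 0.0103), LPL (1.39, FDR 0.0451), MT-CO1 (0.90, FDR 0.000581) and a gene without a symbol (0.84, FDR 0.0138). Of the 10 granulocyte and monocyte genes among the 15 largest decreases in SF, 6 were lower in ISF than in SF, and ECATH-2 (-3.38, FDR 0.0589), LCN2 (-1.56, FDR 0.158), TGM3 (-1.10, FDR 0.126) and CHI3L1 (-0.60, FDR 0.353) were not called, nor was S100P (0.27, FDR 0.719). LTF was at -3.26 (FDR 0.0275), S100A12 at -3.20 (FDR 0.0103), and LYZ at -2.81 (FDR 0.0123). RETN was at -2.40 (FDR 0.036), ELANE at -2.12 (FDR 0.0424) and PADI4 at -2.09 (FDR 0.00168). In 3 further genes that were high in fresh BMNC and have no symbol, the differences were -2.61, -2.75 and -3.39 (FDR 0.0468, 0.0267 and 0.026). MLANA, which rose in SF, was lower in ISF (-2.34, FDR 0.000253). The matrix genes COL1A1 (-3.16), COL3A1 (-3.38), COL1A2 (-3.23), COL6A1 (-2.62), DCN (-2.41) and LUM (-2.31), with CLU (-2.72) and CXCL11 (-2.08), were lower in ISF, at FDR 0.00126 to 0.00779. The stromal list mean went the other way in Moon, at 2.90 in ISF and 1.56 in SF.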

How the results depend on the processing

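The count of genes called between fresh BMNC and SF at 10 days was 10141 and lay between 7883 (filter of 5 GeTMM) and 11838 (no filter) over the changes of pseudocount, filter, fit, weights and scaling, and was 9979 with limma voom on recovered reads. With a log2 fold change of at least 1 it was 4968 (2411 higher, 2557 lower). With the horse as replicate block, which pairs the samples, it was 10556, or 10331 in the fit of the 2 groups alone, and the block over all libraries moved 10 of 427 named genes across the threshold, CD3D, PAX5, TFEB, DQA, DQB, IFI44L, COX6A1, NDUFV1 and UQCRC1 into the calls and RPS10 out of them. The blocked fit of the 2 groups moved 24 of the 427 into the calls and 12 out of them. Leaving out each horse gave 9539 to 10485 (4726 to 5297 higher, 4802 to 5188 lower). Chosen after seeing the data, leaving out the 6-day SF culture of Moon gave 10791 and the fresh library of Ollie 10057. For ISF against SF at 10 days, 3027 genes were called, 3943 with the block. With libraries scaled to the same sum, 645 were higher and 2488 lower, and with a log2 fold change of at least 1, 924 were called (344 higher, 580 lower). Leaving out each horse gave 1945 to 4086 (910 to 1975 higher, 1035 to 2111 lower), lowest without Dealings and highest without Moon. The sign turned in 2 of the 427, each from -0.02, not called, to 0.26 when scaled to the same sum, 1 of them being NDUFS4 (FDR 0.0412). Of the 56 genes named by size, rank or spread, COL1A1, COL1A2 and IGLV2-33 lost their call and B2M gained it under at least 1 alternative. With a pseudocount of 0.1 the differences of list means moved furthest for lists near 0, to -7.29 for red cell genes. The causes were not tested. Values near 0.0417 to 0.0792 GeTMM per kilobase rest on single reads, which limits genes listed at 0.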
